A study of Homo sapiens with 12 samples.

Results

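The HOX genes are the 39 protein-coding genes whose symbol is HOX followed by A, B, C or D and a number. They lie in 4 clusters, HOXA on chromosome 7, HOXB on chromosome 17, HOXC on chromosome 12 and HOXD on chromosome 2, and they make up 39 of 20033 protein-coding genes in the RefSeq table for GRCh38.p14. Members were chosen by name, not by any measured value. Summits of the deposited peak list (the position of the strongest signal in a peak) were taken when they lay inside a member or within 10 kb of it, which gave 59 of the 188019 summits in the list. The readthrough gene HOXA10-HOXA9 has a compound symbol and was not counted.

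HOX genes encode homeodomain transcription factors that set position along the body axis. Genes of the same number in different clusters, called a paralog group, descend from 1 ancestral gene. Low numbers lie at the 3′ end of each cluster and act towards the head, and high numbers lie at the 5′ end and act towards the tail and the ends of the limbs. Polycomb proteins keep HOX genes silent and trithorax proteins keep them active, so that adult fibroblasts carry a pattern of active HOX genes that differs with the body site they came from.

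The cells were HT1080, an established human fibrosarcoma line, studied by ATAC-seq, in which a transposase cuts accessible DNA. They were embedded for 48 h in rat tail type I collagen at 0.3 mg/mL (low), 1.0 mg/mL (medium) or 1.7 mg/mL (high), with 4 libraries per concentration and 12 in all. Cells were freed with collagenase, frozen and thawed before nuclei were transposed, with at most 25000 cells per library. Every group also received the matrix metalloproteinase inhibitor GM6001 at 20 µM, and no group without it was labelled. HT1080 is a single tumour line, and neither primary fibroblasts nor cells on a flat surface were among the samples. The analysed file was 1 peak list for the whole series with no value per library or concentration. No comparison between concentrations was therefore made, the values below have no replicates, and the depth per library is unknown.

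A summit is described by its enrichment, the authors' fold over the local background, and by its pileup, the fragments stacked at that base. The pileup was recovered from the authors' enrichment and p-value and is given with a 95% exact Poisson interval. These intervals cover counting error only, since fragments copied by PCR are not independent molecules. Fewer cells with an open site and less signal per cell cannot be told apart in bulk libraries. A start was called open when a summit lay within 1000 bp of it and closed otherwise. Closed means that no summit was listed there, not that the DNA was shown to be inaccessible.

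The line's labelled origin was checked at marker genes. Among 10 mesenchymal markers, 6 had a summit within 1000 bp of either end of the gene, including VIM (enrichment 6.64), which encodes the filament protein vimentin, and FN1 (15.1), which encodes fibronectin. COL1A1, COL1A2, COL3A1 and THY1 had none. Of 8 epithelial markers 4 had such a summit, as did 2 of 6 blood cell markers, against 65.7% of all protein-coding genes. The latter 2 were CD3E at 14.5 and SPI1 at 8.44, both above VIM. CD3E and SPI1 have no start in the promoter table, so their summits were not placed at a start. Where a start was in that table, 5 of 5 mesenchymal, 0 of 2 epithelial and 0 of 3 blood cell markers were open. The share over coding genes was 67.6%. Near either end, EPCAM had 2.11 and KRT18 1.75, and CDH1 had none. The highest epithelial value was 12.7, at a summit near an end of KRT8. That summit lies inside the overlapping gene KRT18, and KRT8 was closed at the starts used. The lists are short, and their part in the HOX results was not tested.

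The sequences below show what the starts look like on which the open and closed calls rest. They are the 250 bases upstream of each start, from RefSeq (GRCh38.p14), 5′ to 3′ on the strand of the gene. Capitals mark matches, on either strand, to 6 words that were searched for. The CCAAT box is a common promoter element of that spelling. The GC box, the element bound by SP1, was searched as GGGCGG. The TATA word, found upstream of many regulated starts, was TATAAA. The core word that most homeodomains prefer was TAATTA. A composite word for a HOX protein beside its partner PBX was TGATTNAT. The word of the AP-1 factors was TGANTCA. Words could overlap. For each cluster, the open start with the highest enrichment and the closed start nearest to an open one are given, among the starts in the promoter table. HOXD13 was added after its values were seen, for comparison with HOXA13.
HOXA13, open, chr7:27200092-27200341, minus strand: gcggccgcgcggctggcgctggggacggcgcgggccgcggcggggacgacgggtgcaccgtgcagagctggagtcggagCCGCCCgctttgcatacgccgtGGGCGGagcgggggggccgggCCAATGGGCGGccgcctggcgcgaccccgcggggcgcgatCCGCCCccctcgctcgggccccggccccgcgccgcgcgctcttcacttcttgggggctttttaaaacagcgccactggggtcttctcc
HOXD13, open, chr2:176092471-176092720, plus strand: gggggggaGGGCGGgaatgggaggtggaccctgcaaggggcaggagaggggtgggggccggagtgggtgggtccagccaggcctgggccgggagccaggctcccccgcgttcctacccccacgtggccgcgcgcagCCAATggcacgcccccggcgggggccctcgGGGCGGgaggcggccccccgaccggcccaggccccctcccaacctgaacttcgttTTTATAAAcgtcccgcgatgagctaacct
HOXD8, open, chr2:176129455-176129704, plus strand: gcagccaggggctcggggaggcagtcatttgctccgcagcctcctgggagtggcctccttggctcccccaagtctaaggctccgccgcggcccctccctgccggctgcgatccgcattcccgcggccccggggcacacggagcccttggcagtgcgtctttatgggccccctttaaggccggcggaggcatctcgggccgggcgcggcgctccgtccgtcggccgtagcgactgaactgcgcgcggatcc
HOXB1, open, chr17:48531012-48531261, minus strand: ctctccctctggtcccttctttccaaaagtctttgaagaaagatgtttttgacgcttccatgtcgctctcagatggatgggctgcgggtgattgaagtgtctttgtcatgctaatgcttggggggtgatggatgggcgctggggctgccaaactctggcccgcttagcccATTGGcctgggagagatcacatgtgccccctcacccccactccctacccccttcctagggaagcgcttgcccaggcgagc
HOXA3, most upstream start, closed, chr7:27152584-27152833, minus strand: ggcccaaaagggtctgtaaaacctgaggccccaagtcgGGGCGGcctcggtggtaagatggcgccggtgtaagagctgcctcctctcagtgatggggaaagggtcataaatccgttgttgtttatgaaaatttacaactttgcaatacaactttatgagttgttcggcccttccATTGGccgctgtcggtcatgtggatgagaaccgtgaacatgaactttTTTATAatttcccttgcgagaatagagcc
HOXC4 and HOXC5, shared start, closed, chr12:54016638-54016887, plus strand: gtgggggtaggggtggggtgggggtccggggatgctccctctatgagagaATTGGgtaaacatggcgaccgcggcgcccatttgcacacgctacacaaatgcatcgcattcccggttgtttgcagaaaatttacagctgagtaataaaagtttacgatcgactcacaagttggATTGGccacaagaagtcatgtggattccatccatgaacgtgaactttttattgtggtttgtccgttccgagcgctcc
HOXD3, closed, chr2:176157057-176157306, plus strand: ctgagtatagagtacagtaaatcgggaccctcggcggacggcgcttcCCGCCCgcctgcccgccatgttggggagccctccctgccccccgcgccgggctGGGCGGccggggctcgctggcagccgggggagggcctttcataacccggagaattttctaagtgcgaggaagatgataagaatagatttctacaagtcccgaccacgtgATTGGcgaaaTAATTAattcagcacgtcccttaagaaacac

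All these starts had CG dinucleotides, from 40 in the HOXA13 window to 7 in the HOXB1 window. Across the 26 starts of HOX genes in the promoter table, the 11 open starts had a median GC content of 65.2% (range 47.6% to 78.0%) and the 15 closed starts 53.2% (43.2% to 72.0%). The ranges overlapped. The closed starts included 7 of HOXA3 and HOXA10, and starts of 1 gene share its locus. The median over 34943 starts in the table was 58.0%. The observed to expected CG ratio was 0.903 at open and 0.749 at closed HOX starts, against 0.556 over all starts.

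A CCAAT box occurred upstream of 17 of the 26 HOX starts (65.4%), against 32.0% of all starts, and a GC box upstream of 13 (50%), against 42.5%. The TATA word occurred at 5 (19.2%, against 10.8%), the homeodomain core at 2, HOXD3 and HOXD11 (7.69%, against 4.35%), and the HOX-PBX word at 2, HOXA2 and HOXD11 (7.69%, against 2.49%). The HOXD11 start thus held both homeodomain words. No AP-1 word was found in these windows, and 6.59% of all starts had one. Over 177 pairs of starts from different clusters, aligned at the start, the pair most alike in the last 100 bases was HOXA13 and HOXD13. It had 42 identical bases against a median of 26. Pairs from different paralog groups came close, with 40 for HOXD8 and the open HOXA3 start and 39 for HOXD1 and HOXA9. The GC content of the HOXA13 and HOXD13 windows was 78.0% and 74.0%, and its part in the matches was not tested.

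Of the 39 HOX genes, 21 (53.8%) had an open start. The same rule called 67.6% of 15841 protein-coding genes with a start in the promoter table, and 63.7% of those with a single start there. With a window of 2500 bp the shares were 69.2% of HOX genes and 73.0% of coding genes, and with 500 bp 43.6% and 64.0%. Starts of 19 members were gene edges, while the background used starts in the promoter table. Among the 20 members with such a start, 11 (55.0%) were open. The difference from the background was not tested. The highest enrichment at the 21 open HOX starts had a median of 4.32, with quartiles of 2.95 and 8.77. At 10716 open coding starts the median was 12.3, with quartiles of 7.89 and 15.0. HOXC13 was among the 2 that lay above that median, and 14 of the 21 lay below the lower quartile. The median pileup was 229 fragments at open HOX starts and 818 at all open coding starts. Their intervals were of usual length, with medians of 979 and 925 bp.

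**Figure D1:**
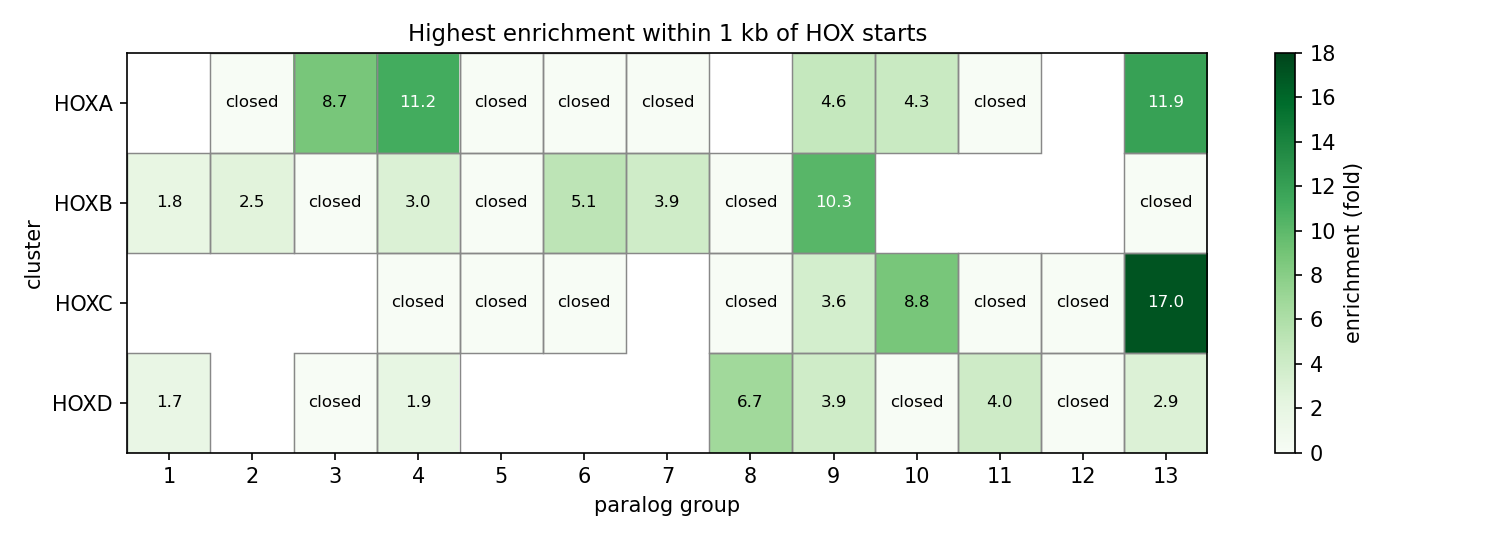
Highest enrichment (fold, colour and number) within 1 kb of the start of HOX genes, by cluster (rows) and paralog group (columns). Empty fields have no value shown, and fields marked closed have no summit within 1 kb of the starts used. Group 9 is open in all 4 clusters, groups 5 and 12 in none, and HOXC13 has the highest value, 17.0.

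Read by paralog group, the code was not a single block. All 4 members of group 9 were open, none of the 3 members of group 5 or the 2 of group 12 was, and 9 groups were mixed. In groups 4 and 13, 3 of 4 members were open. By class, 5 of 8 anterior genes (groups 1 to 3), 6 of 15 central genes (groups 4 to 8) and 10 of 16 posterior genes (groups 9 to 13) were open. The shares were 62.5%, 40.0% and 62.5%, against 67.6% of coding genes. A window of 2500 bp also opened the central genes HOXB8, HOXC4, HOXC5, HOXC6 and HOXC8 and the posterior gene HOXD12. HOXC4, HOXC5 and HOXC6 share the start used for them, so the call at HOXC5 in group 5 rests on that shared start. The order of the classes by share is therefore not settled. Median enrichments of the open starts in these classes were 2.49, 4.49 and 4.46, and median pileups 92, 186 and 339.5. The central and posterior ranges of enrichment overlapped widely, at 1.92 to 11.2 and 2.94 to 17.0.

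**Figure D2:**
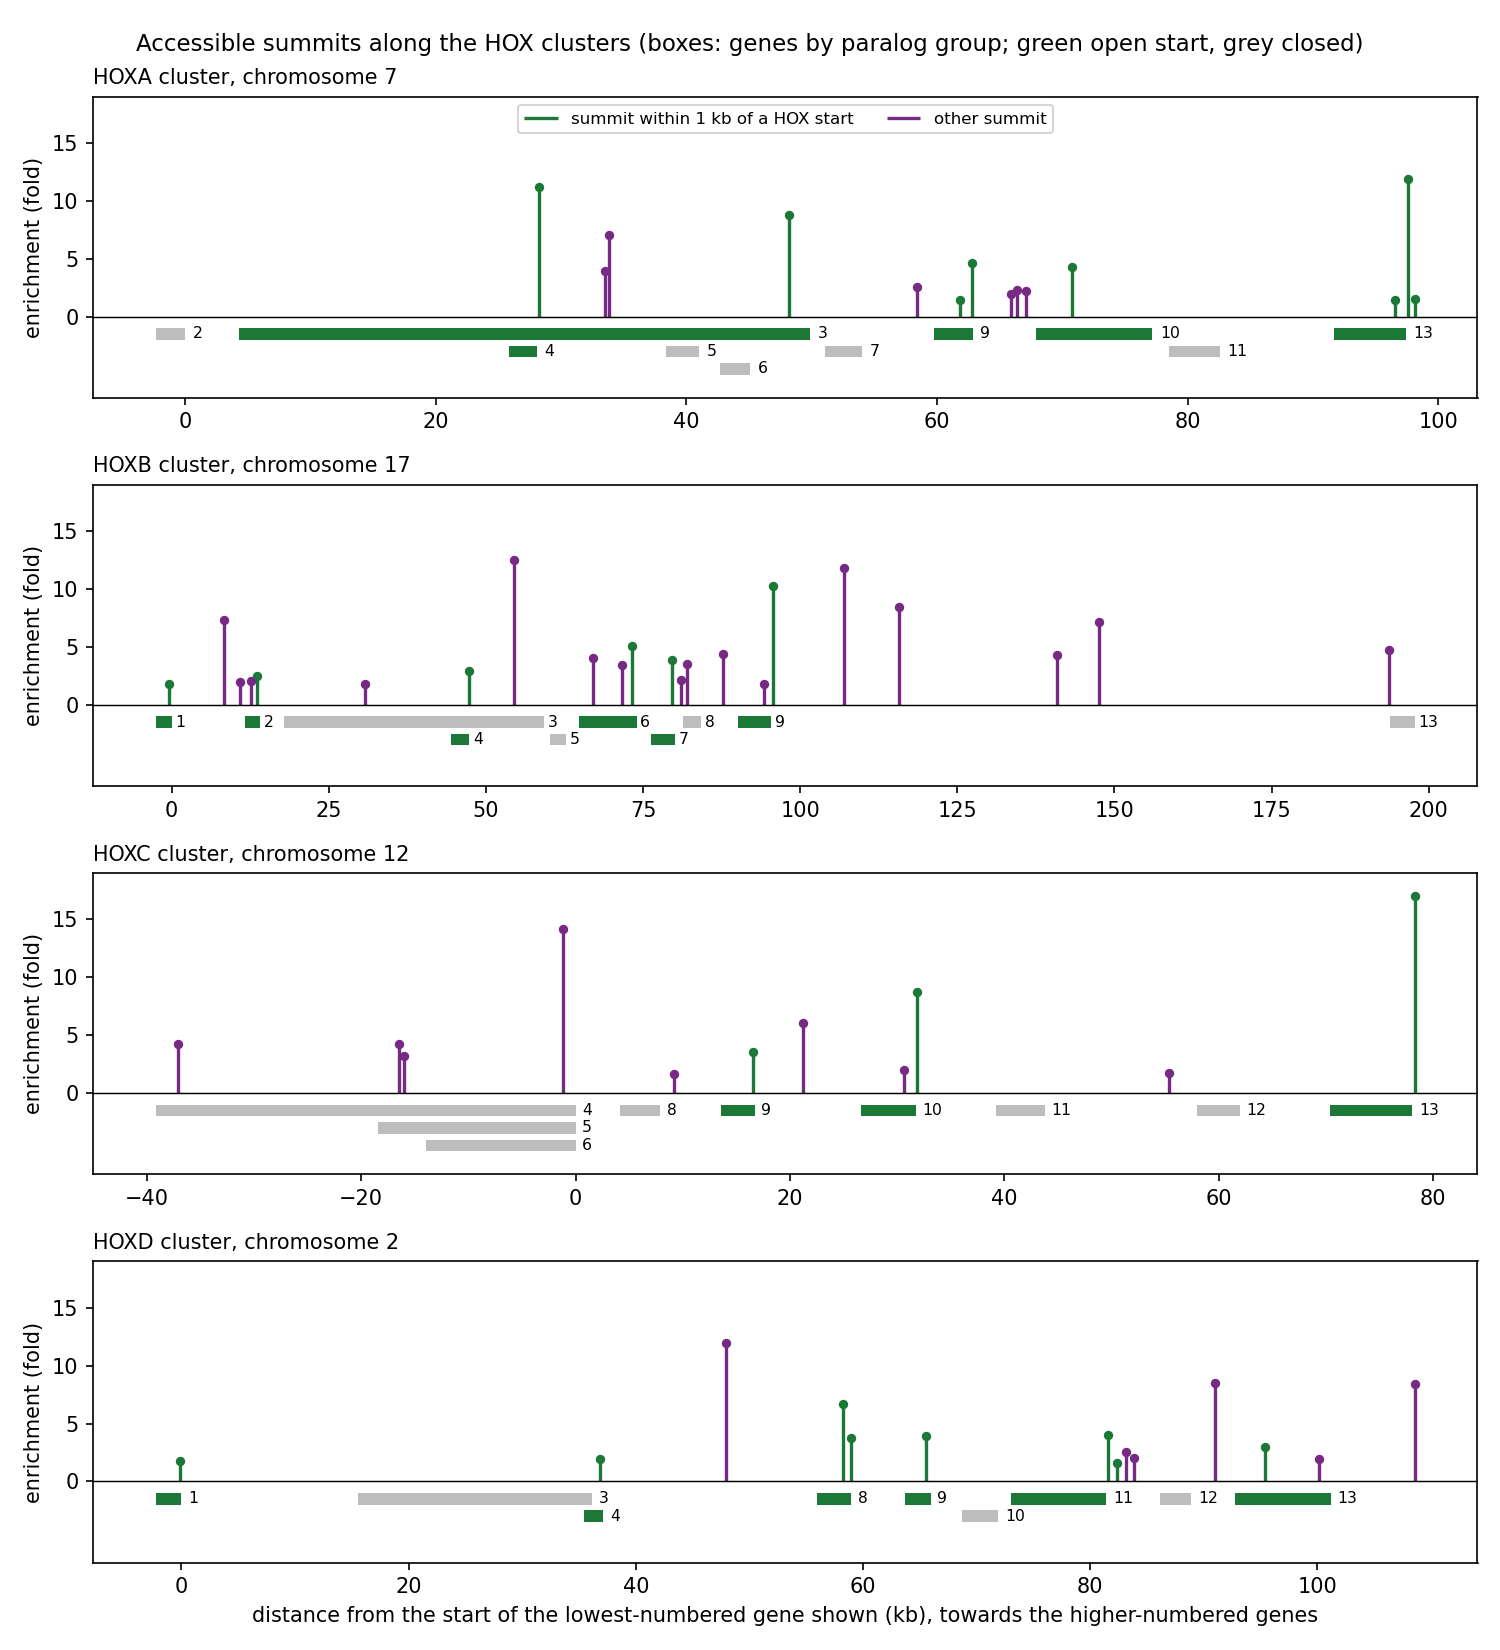
Enrichment (fold, vertical axis) of summits along the 4 clusters, against the distance in kb from the start of the lowest-numbered gene shown. Green stems lie within 1 kb of a HOX start and purple stems do not. Boxes are genes with their group number, green where the start was open. In HOXB and HOXD the tallest stem, 12.5 and 11.9, is purple.

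The HOXA cluster (107.1 kb on chromosome 7, minus strand) had 6 open starts of 11. From HOXA2 to HOXA13 the code was closed at HOXA2, open at HOXA3 and HOXA4, closed at HOXA5, HOXA6 and HOXA7, open at HOXA9 and HOXA10, closed at HOXA11 and open at HOXA13. HOXA13, which patterns digits and the urogenital tract, had an enrichment of 11.9 with 522 fragments (478 to 569), 199 bp upstream of its start. The end of the noncoding gene HOTTIP lay within 1000 bp of that summit. HOXA4 had 11.2 and 562 fragments (516 to 610), and the intervals of HOXA4 and HOXA13 overlapped.

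HOXA3 was open only at 1 of its 7 starts. That start lies between HOXA6 and HOXA7, downstream of the most upstream start printed above. Its summit reached 8.73-fold with 349 fragments (313 to 388). On the 3′ side of the HOXA4 summit, 34.0 kb held no summit, and this stretch covered HOXA2 and 5 of the HOXA3 starts. HOXA5, HOXA6 and HOXA7 had no summit inside the gene, and the nearest summits to their starts were 7140, 3091 and 4433 bp away. A further 25.7 kb, from inside HOXA10 to inside HOXA13, held none either and covered HOXA11, whose start was 11767 bp from the nearest summit, the largest distance of any member.

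HOXA9 and HOXA10, the genes of this cluster best known from leukaemia, had low enrichments over a background that was high among HOX starts. HOXA9 had 4.59 with a pileup of 444 (404 to 487) over a background of 95.9 fragments, and HOXA10 had 4.32 with 344 (309 to 382) over 78.8. The median background was 37.3 at open HOX starts and 66.3 at open coding starts. Both values lay between the quartiles of open coding starts, 38.8 and 109.8. HOXA10 was open at its inner start, 855 bp from the summit, and closed at its outer one. Within 8.91 kb, 6 summits had backgrounds of 78.8 to 113.3 fragments, 3.88 to 5.58 times the lowest background in the list (20.3), with pileups of 120 to 444. Only 10 of the 59 summits had a background of at least 3 times the lowest, and the other 4 were near the starts of HOXB9, HOXC13 and HOXC4. Read by pileup, HOXA9 stood above 29.7% of open coding starts. Read by enrichment, it stood above 13.8%. DNA copy number was not analysed here, and its part in the backgrounds was not tested.

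MIR196B lies in the same stretch, inside an interval of 1817 bp (27168359 to 27170175) with 3 summits of enrichment 1.95 to 2.30. Each cluster carries microRNA genes, and miR-196 is known to target HOX messages, which is why its mature sequences are shown, with the seed (bases 2 to 8) in capitals, from RefSeq (GRCh38.p14). miR-196b-5p lies at chr7:27169528-27169549 on the minus strand and miR-10a-5p at chr17:48579904-48579926 on the minus strand. The 196a form comes from MIR196A1 in HOXB (chr17:48632532-48632553, minus strand) and MIR196A2 in HOXC (chr12:53991762-53991783, plus strand).
miR-196a-5p: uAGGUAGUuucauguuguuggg
miR-196b-5p: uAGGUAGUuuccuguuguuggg
miR-10a-5p: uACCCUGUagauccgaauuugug

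The miR-196 forms share their seed and differ by A12C (miR-196a base first, counted from the 5′ end). MIR196B was the only 1 of the 6 microRNA genes inside a listed interval. MIR615 had a summit at 565 bp (enrichment 4.25). The nearest summits were at 1479 bp for MIR10A, 1436 bp for MIR10B, 3794 bp for MIR196A2 and 5476 bp for MIR196A1. Starts of the primary microRNA transcripts were not used here.

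The HOXB cluster (200.2 kb, 48528526 to 48728750 on chromosome 17, minus strand) had 6 open starts of 10. The code was open at HOXB1 and HOXB2, closed at HOXB3, open at HOXB4, closed at HOXB5, open at HOXB6 and HOXB7, closed at HOXB8, open at HOXB9 and closed at HOXB13. HOXB9 stood apart, at 10.3-fold with 770 fragments (717 to 826) in the interval 48625079 to 48626925. HOXB6 was next with 5.11 and 229 fragments (200 to 261), and the lowest was HOXB1 with 1.83 and 38 (26.9 to 52.2). HOXB7 had 3.87, HOXB4 2.95 and HOXB2 2.49. The HOXB1 and HOXB4 backgrounds were at the lowest value in the list, so their low enrichments did not come with a raised background.

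The strongest summit of HOXB lay away from any start used here. It was at 48585510, between HOXB4 and HOXB5 and inside HOXB3 as annotated, 586 bp from an end of the noncoding gene HOXBLINC, at 12.5-fold with 542 fragments. It was 4731 bp from the HOXB3 start, which was closed. HOXB8 had a summit within the gene (3.53), 2228 bp from its start. HOXB13, a prostate and hindgut gene set far from the rest, had none inside the gene. Its nearest summit (4.78, pileup 119) was 4067 bp away beyond its 3′ end, within 1000 bp of an end of PRAC2. Between HOXB9 and HOXB13, 4 summits lay over 10 kb from every member, the nearest of them 11677 bp from the HOXB9 start with an enrichment of 11.8. These were outside the rule for member summits.

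The HOXC cluster (117.2 kb, 53938831 to 54056030 on chromosome 12, plus strand) had 3 open starts of 9, at HOXC9, HOXC10 and HOXC13. HOXC13, a gene of hair and nail, had the highest enrichment of any HOX start, 17.0, and a pileup of 2009 (1922 to 2099), in the interval 53938323 to 53939246. It stood above 92.4% of open coding starts by enrichment and above 86.0% by pileup, and the Poisson interval of its pileup did not overlap that of HOXB9, the next HOX start by pileup. The summit lies inside the antisense gene HOXC13-AS, and signal for either gene cannot be told apart. HOXC10 had 8.77 and 335 fragments (300 to 373), with an end of HOXC-AS3 within 1000 bp, and HOXC9 had 3.57 and 152 (129 to 178).

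From HOXC13 to HOXC10 a single low summit (enrichment 1.78, pileup 37) lay between the starts, near an end of HOTAIR, with stretches of 22.7 and 23.6 kb without any on either side. HOXC12 and HOXC11, and the body of HOTAIR, a noncoding RNA of this interval, lay in that region, with start distances of 6581 bp for HOXC12 and 11642 bp for HOXC11. At the other end, HOXC4, HOXC5 and HOXC6 share a start in the gene table. It was closed by a narrow margin, since a summit of 14.2-fold with 1308 fragments (1238 to 1381) lay 1178 bp downstream. HOXC8 was the next nearest miss, with a summit of 1.68 at 1249 bp. The open members nearest to the 1000 bp limit were HOXA10 (855 bp), HOXD8 (734 bp for its strongest summit, 21 bp for another) and HOXB6 (713 bp). Starts of HOXC4, HOXC5 and HOXC6 other than the shared one were not used here. Further into HOXC4 and HOXC5, summits of 3.24 and 4.25 lay 15993 and 16497 bp from the shared start. A summit of 4.27 lay inside HOXC4 only, 37045 bp from that start. Whether these summits lie near other starts was not examined.

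The HOXD cluster (103.4 kb, 176087487 to 176190907 on chromosome 2, plus strand) had 6 open starts of 9, and none of them reached 7.89, the lower quartile of open coding starts. At a −log10 q of at least 10 its open starts fell to 4, with 6 of 11 in HOXA and 5 of 10 in HOXB. With a window of 2500 bp HOXC rose from 3 to 7 open starts of 9, with 6 in HOXA and 7 each in HOXB and HOXD. Any overlap of the interval with the window gave 6 in HOXC. The order of the clusters by share is therefore not settled. The code was open at HOXD1, closed at HOXD3, open at HOXD4, HOXD8 and HOXD9, closed at HOXD10, open at HOXD11, closed at HOXD12 and open at HOXD13. HOXD8 had the highest enrichment at a start, 6.69, with 233 fragments (204 to 265), followed by HOXD11 with 3.99 and 149 (126 to 175) and HOXD9 with 3.91 and 85 (67.9 to 105.1). HOXD13, a digit gene like HOXA13, had 2.94 and 106 (86.8 to 128.2). HOXD4 had 1.92 and 40 (28.6 to 54.5), and HOXD1 had 1.74 and 36 (25.2 to 49.8), the lowest of all open members. The Poisson intervals of HOXD1, HOXD4 and HOXB1 overlapped, so their order is not resolved at this depth.

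HOXD11 lay at the edge of the longest interval of any cluster, 3001 bp with 4 summits of 1.59 to 3.99. Stronger summits lay between the genes. The highest, 11.9 with a pileup of 372 (335 to 412), was at 176140741, between HOXD8 and HOXD4 and 350 bp from an end of the noncoding locus LOC401021. A summit of 8.52 lay between HOXD13 and HOXD12, 2070 bp from the closed HOXD12 start, and another of 8.40 lay beyond HOXD13 inside EVX2, an even-skipped type homeobox gene whose own starts were closed. From HOXD4 to HOXD1, 36.9 kb held no summit, across HOXD3.

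**Figure D3:**
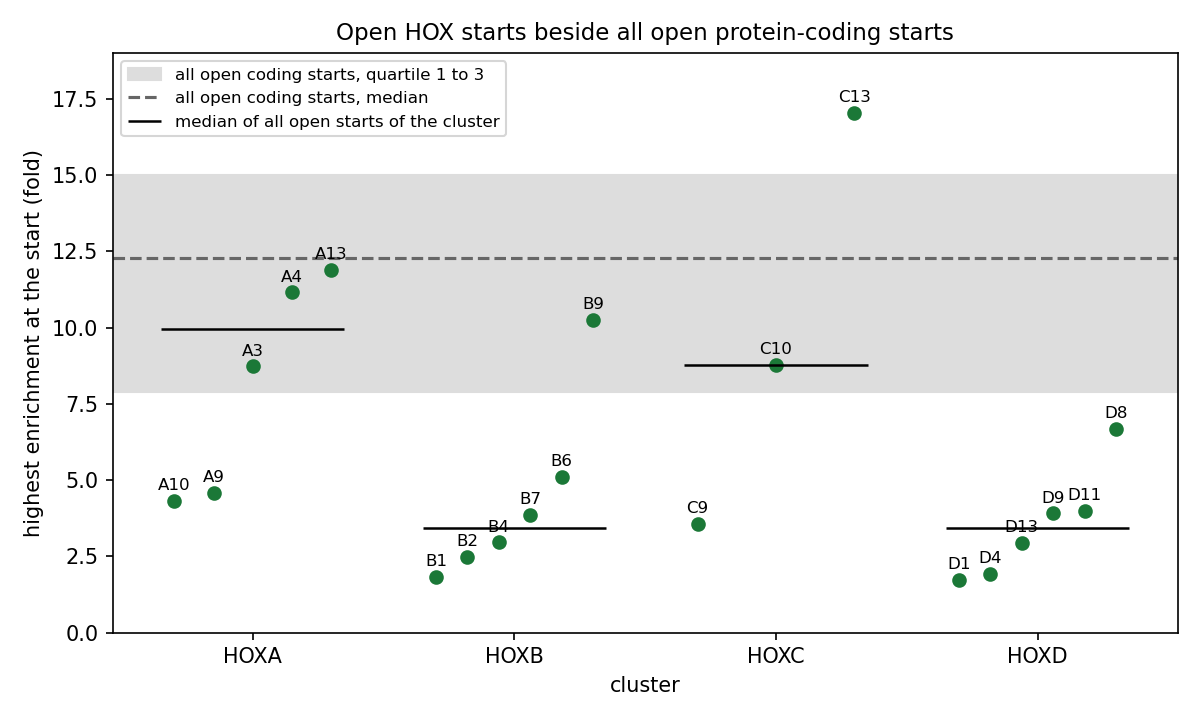
Highest enrichment (fold) at open HOX starts by cluster, points named by gene. The grey band spans the quartiles (7.89 to 15.0) and the dashed line the median (12.3) of 10716 open protein-coding starts, and short black lines are medians over all open starts of a cluster. HOXC13 lies above the band, and every open HOXD start lies below it.

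Median enrichment of the open starts was 9.94 in HOXA, 3.41 in HOXB, 8.77 in HOXC (3 starts) and 3.43 in HOXD. Summits per 10 kb of cluster were 1.31 in HOXA, 1.10 in HOXB, 0.853 in HOXC and 1.26 in HOXD. With each interval counted once, the density was highest in HOXB, at 0.999, with 0.840 in HOXA, 0.683 in HOXC and 0.870 in HOXD. At a −log10 q of at least 10 the density fell in every cluster, to 1.03 in HOXA, 0.799 in HOXB, 0.597 in HOXC and 0.774 in HOXD. Listed intervals covered 8.18%, 7.65%, 6.43% and 7.99% of their length. Paralogs of 1 group could be far apart. Group 13 ran from 17.0 at HOXC13 through 11.9 at HOXA13 and 2.94 at HOXD13 to closed at HOXB13. Group 9 was open throughout, with 10.3 at HOXB9, 4.59 at HOXA9, 3.91 at HOXD9 and 3.57 at HOXC9. No test was run on these differences, since the pooled list has no replicates and genes of a cluster are not independent.

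**Figure D4:**
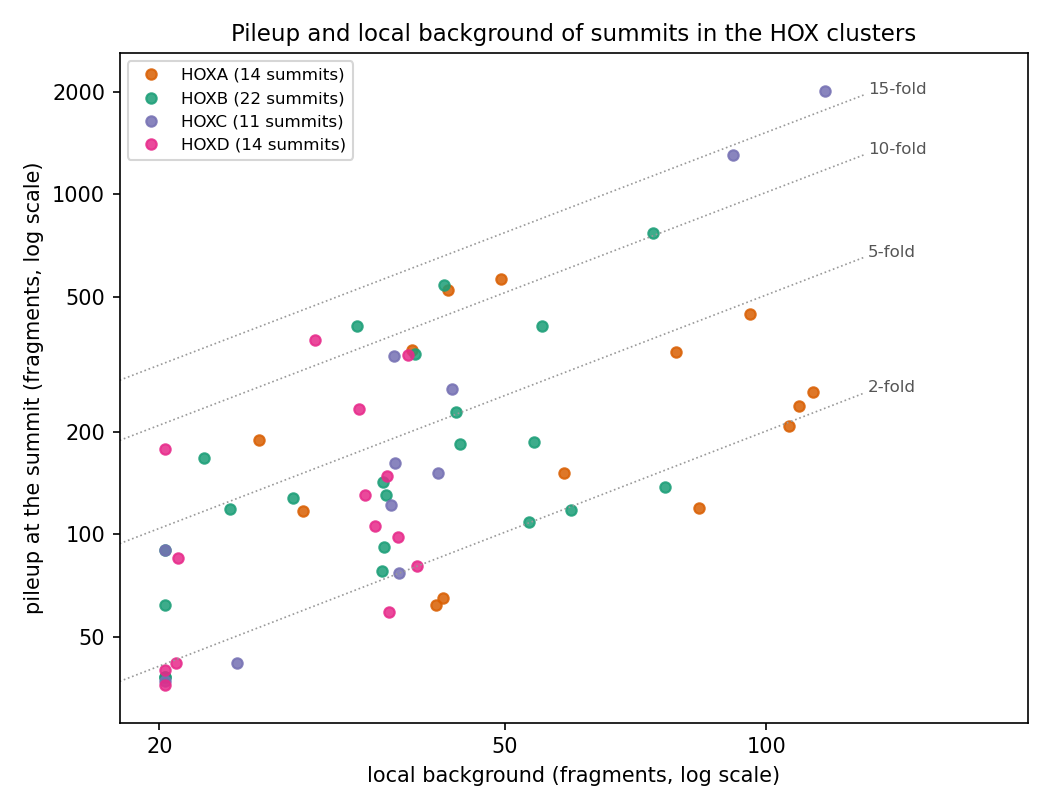
Pileup at the summit against local background (both fragments, log scales) for summits within the clusters or 10 kb of a member. Dotted lines mark equal enrichment. HOXC13 (pileup 2009) and the summit downstream of the shared HOXC4 start (1308) lie at the upper right, and the HOXA9 to HOXA10 summits have backgrounds of 78.8 to 113.3 with pileups of at most 444.

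All 39 members had a summit in the gene or within 10 kb, against 89.8% of 20033 protein-coding genes. The clusters are compact, and 45 of the 59 summits reached 2 or more members and up to 5, so this count says little about single genes. Inside the gene itself, 21 members had a summit (53.8%), against 66.1% of all protein-coding genes. Of the 18 members with a closed start, 5 had one, HOXB3, HOXB8, HOXC4, HOXC5 and HOXC6, and the last 3 overlap each other. The median distance from a closed start to the nearest summit was 4363 bp (range 1178 to 11767). Among open starts, the strongest summit lay downstream in 13 and upstream in 8, at a median of 209 bp.

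Of the 59 summits, 27 lay within 1000 bp of a member's start and 32 did not, 15 of the latter inside a member and 17 outside every member, some of these inside other genes such as EVX2. Their median enrichments were close, 3.87 at starts and 3.33 elsewhere. Among the 8 summits over 10, 5 were at starts, among them those of HOXA4, HOXA13, HOXB9 and HOXC13, and 3 were not. The latter were those between HOXB4 and HOXB5, downstream of the HOXC4 start and between HOXD8 and HOXD4, and each lay within 1000 bp of an end of a noncoding gene (HOXBLINC, LOC124902939 and LOC401021). Such an end lay near 11 of the 32 summits away from starts. It lay near 21 of all 59 HOX summits (35.6%), against 3.72% of all listed summits, and near 7 of the 21 strongest summits at open HOX starts (33.3%), against 17.8% at open coding starts. The HOX summits were chosen for lying in or within 10 kb of genes, while all listed summits include those far from genes. The 35.6% and 3.72% are therefore not shares of like sets. These differences were not tested. Of the 18 listed noncoding RNA genes of the clusters, 10 carried a summit near either end. Of the 11 with a start in the promoter table, 3 were open (27.3%). No share over all noncoding RNA genes is given here, so neither count can be read as high or low. ATAC-seq does not mark strand, so a summit between divergent genes cannot be given to either.

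Genes that act with HOX proteins or control them were taken from lists, and their counts are read against the 67.6% of coding genes with an open start and the 65.7% with a summit near either end. All 18 Polycomb and trithorax genes carried a summit near an end of the gene (1000 bp), and 14 of 14 with a start in the promoter table were open, with a median enrichment of 12.7. Among them were SUZ12 (17.4) and EZH2 (15.6), core and catalytic subunits of Polycomb complex 2, and KMT2A (16.3), a trithorax-type methyltransferase. Among the TALE cofactors, homeodomain partners of HOX proteins, 3 of 7 were open (42.9%). PKNOX1 had 16.7, MEIS1 8.71 and MEIS3 1.97, while PBX2, PBX3, PBX4 and MEIS2 were closed at the starts used. MEIS2 had a summit of 6.11 at an end of the gene.

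Retinoid and CDX genes, which act upstream of HOX genes in the embryo, were open in 6 of 11 (54.5%, against the same 67.6%). These were the receptors RARA (8.03), RARB (3.47), RARG (6.63), RXRA (8.26) and RXRB (7.98), and CDX2 at 1.69. The retinoid enzymes CYP26A1, CYP26B1, CYP26C1 and ALDH1A2 and the gene CDX4 were closed. Other homeobox genes of the same ANTP class were open in 8 of 14 (57.1%), with a median of 8.83, from 1.92 at GSX1 to 14.3 at MSX1. Of the flanking genes, LNPK (13.7) and MTX2 (13.1) beside HOXD were open, and EVX1 and EVX2, the nearest homeobox neighbours, were closed. Forkhead genes, another developmental family, were open in 26 of 41 (63.4%, median 7.86), and clustered protocadherins in 16 of 47 (34.0%, median 2.88). These differences from HOX genes were not tested.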

How the data were processed

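ATAC-seq libraries of 12 HT1080 samples, 4 at each of 3 collagen concentrations, were deposited as 1 pooled peak list of 188019 lines without a header. Per the submitters' processing notes, the tools were fastp 0.20.0, Bowtie2 2.4.3, SAMtools, deepTools 3.5.0 and MACS2 2.2.7.1 on hg38. Their settings, the control and the handling of duplicates are not given in the sources used here. The deposited columns were taken as a score, an enrichment (a ratio, fold over the local background), and a p-value and a q-value on the −log10 scale. The deposited score equalled 10 times the −log10 q, truncated, in 99.76% of lines. Depth per library is unknown.

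The pileup and background were solved from the authors' enrichment, taken as (pileup + 1)/(background + 1), and p, taken as a Poisson upper tail. The pileup was whole within 0.05 in 99.96% of lines, and the solver was tested on simulated data. Summits were placed with the RefSeq tables for GRCh38.p14. Starts came from the promoter table for 20 of 39 members (11 open). For the other 19 (10 open) the 5′ edge of the gene was used, on the strand shared by all listed members of the cluster. Exact Poisson intervals are at 95%. Python 3.11.15 with numpy 2.4.6, pandas 2.3.3 and scipy 1.17.1 was used.

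All members enter the counts, and the values of 1 member and 1 cofactor are not reported here. Described in full were, per cluster, the 2 highest and the lowest enrichments at open starts, every closed start, the members where a run of open starts begins or ends, and the highest pileups. Of the other lists, counts and the genes in or beside the clusters were to be named; further list genes were named after their values were seen. The members, lists and rules were chosen with earlier results of these data known. No test was run, because a pooled list has no replicates.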

Additional observations from a re-analysis of the deposited data

How the results depend on the processing

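The count of open HOX starts, 21, ran from 17 with a window of 500 bp to 27 with 2500 bp. The narrow window lost HOXA10, HOXB2, HOXB6 and HOXD13, and the wide one added HOXB8, HOXC4, HOXC5, HOXC6, HOXC8 and HOXD12. Any overlap of the interval with the window gave 24. Either gene end gave 22 of 39, against 65.7% of all protein-coding genes. A −log10 q of at least 10 gave 18 (46.2%), against 63.0% of coding genes, and lost HOXB1, HOXD1 and HOXD4. Among the 20 members with a start in the promoter table, that q left 8 open (40.0%). The 5′ edge of every member, an alternative chosen after seeing the data, gave 19, without HOXA3, HOXA10 and HOXD13 and with HOXD3. The median enrichment at open starts stayed between 3.99 and 4.85 in 4 alternatives. Members with a summit in the gene or flank fell from 39 to 29 with a flank of 2 kb, to 35 at the stricter q, and to 30 when a summit counted for the nearest start only. Summits per 10 kb fell in every cluster with each interval counted at its strongest summit and at the stricter q, because fewer lines were counted. In HOXA the former gave 0.840. The latter gave 1.03 in HOXA, 0.799 in HOXB, 0.597 in HOXC and 0.774 in HOXD. Counting each interval once also put HOXB first, at 0.999. No paired analysis was possible because the list has no column per library, and for the same reason no replicate could be left out. The weakest starts rest on 36 to 40 fragments pooled over all libraries.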
